A study of Homo sapiens with 12 samples.

Results

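The replication-dependent histone genes were taken as all genes of the count table whose symbol begins with HIST1H, HIST2H, HIST3H or HIST4H, which gave 73 of 23368 gene symbols. They comprised 6 genes of the linker histone H1 and 18, 20, 14 and 15 genes of the core histones H2A, H2B, H3 and H4, with 56 on chromosome 6, 16 on chromosome 1 and 1 on chromosome 12 (hg19). The cells were 2 established human breast cancer lines, MDA-MB-231, which is estrogen receptor negative and basal-like, and T47D, which is estrogen receptor positive and luminal. Each line was encapsulated for 3 days in a soft synthetic hydrogel of poly(ethylene glycol) that carried either GFOGER, a peptide that mimics collagen, or IKVAV, a peptide that mimics laminin. Poly(A)-selected RNA was sequenced in 3 libraries each of MDA-MB-231 with GFOGER, T47D with GFOGER and T47D with IKVAV and in 2 of MDA-MB-231 with IKVAV, where a sample labelled as an outlier of doubtful RNA or library quality was not analysed here. Gels were digested with collagenase in every group and RNA of 3 gels was pooled per library. Each subtype is represented by a single line, so subtype and line cannot be told apart.

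The 11 libraries held 14338238 to 18452145 reads on genes, so that 3 reads, the least that was taken as a floor, corresponded to 0.163 to 0.209 CPM (reads per 1000000 reads of the library). VIM, the mesenchymal filament vimentin, had 22875 to 42454 reads in MDA-MB-231 and 61 to 87 in T47D, and ESR1, the estrogen receptor, had 8 to 14 and 4295 to 5140. Of the markers of other cells, the leukocyte gene PTPRC and the fibroblast gene DCN did not exceed 10 reads in any library, whereas the endothelial gene PECAM1 had 144 to 237 reads in MDA-MB-231 and 0 in T47D and the fibroblast gene COL1A1 had 155 to 284 and 884 to 1045.

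Histone proteins package DNA into nucleosomes, in which H2A, H2B, H3 and H4 form the core and H1 binds the linker. The replication-dependent genes are transcribed mainly in S phase in nuclear bodies organised by NPAT, and their mRNAs usually end in a conserved stem-loop instead of a poly(A) tail. The stem-loop is bound by SLBP, which is needed for cleavage of the 3′ end, for translation and for the timed decay of these mRNAs when DNA synthesis stops. Poly(A) selection therefore keeps only those histone transcripts that carry a tail or are carried along, and the reads below do not measure the total histone mRNA. In such RNA from a whole culture, fewer cells that express a gene and less RNA per cell cannot be told apart.

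The stem-loop was searched in the hg19 sequence within 150 bases after the stop codon on the strand of the gene, as the 16-base histone 3′ stem-loop consensus with its variable stem and loop positions left free. It was present in 67 of the 73 genes and in 3 of 19976 other genes with a stop codon (0.015%), which were H3-7, H2AX and TIPARP. It was not matched in HIST1H3E, HIST1H2BI or HIST1H4L. The pseudogenes HIST2H2BA, HIST2H2BC and HIST1H2APS1 gave no match either, but the search began at annotated stop codons, which pseudogenes may lack. For these pseudogenes it therefore cannot show that the stem-loop is absent. The most frequent form, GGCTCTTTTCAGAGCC, was found in 40 genes, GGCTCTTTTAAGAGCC and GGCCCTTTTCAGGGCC in 10 each and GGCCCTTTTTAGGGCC in 4. In each class the gene with the highest mean level is shown, with the match in capitals and 5 bases on either side. The mRNAs of these genes usually end at this element without a poly(A) tail. Its presence in a gene does not show which 3′ end the transcripts read here had. The windows lie at chr6:26055967-26055992 (minus strand) for HIST1H1C, chr6:26124892-26124917 (plus strand) for HIST1H2AC, chr6:27114140-27114165 (minus strand) for HIST1H2BK, chr6:27778289-27778314 (plus strand) for HIST1H3H and chr6:26285354-26285379 (minus strand) for HIST1H4H (hg19), each within 150 bases after the stop codon.
HIST1H1C: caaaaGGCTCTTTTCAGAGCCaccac
HIST1H2AC: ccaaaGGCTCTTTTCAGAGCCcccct
HIST1H2BK: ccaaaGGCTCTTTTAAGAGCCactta
HIST1H3H: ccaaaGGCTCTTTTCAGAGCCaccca
HIST1H4H: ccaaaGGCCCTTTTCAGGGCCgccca
In 59 genes the span listed in the count table ended no more than 11 bases past the stem-loop. The spans of HIST1H2BK, HIST1H2BD and HIST2H2BE, which were 3 of the 4 histone genes with the highest mean CPM, went on for 8073, 12746 and 1728 bases past it, introns included, and those of the H1 gene HIST1H1C and the H2A gene HIST1H2AC for 4 and 6.

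Reads were concentrated on a few genes. Of the 73 genes, 11 had no read in any library, 40 reached 10 reads in some library and 12 reached 100. The 12 genes with the highest mean level took 88.1% to 93.5% of the histone reads of a library. HIST1H2BK, an H2B gene, had 1253, 1226 and 1171 reads in MDA-MB-231 with GFOGER, 848 and 1040 with IKVAV, 2389, 2530 and 2622 in T47D with GFOGER and 1989, 2469 and 3001 with IKVAV. Every T47D library was above every MDA-MB-231 library for this gene. Per kilobase of the listed length its mean level was 79.0 CPM in MDA-MB-231 and 180 in T47D, with TMM-scaled library totals, ahead of 55.8 and 62.3 for HIST1H1C, 49.7 and 55.2 for HIST1H2BD and 41.1 and 52.8 for HIST1H2AC. HIST1H2BK stood above the next gene in every library of both lines, whereas the levels of HIST1H1C overlapped with those of HIST1H2BD, and those of HIST1H2BD with those of HIST1H2AC, between the libraries of each line. Only 43.4% of the 51-base windows of HIST1H2BK occurred once in the genome, and HIST1H4I lies inside its listed span. Where the listed span was longer than the listed length, as here, windows came from all GENCODE exons of the gene, overlapping ones included. They may therefore differ from the bases on which reads were counted. HIST1H2BD, another H2B gene, had 637 to 820 reads in MDA-MB-231 and 657 to 888 in T47D. HIST1H2AC overlapped in reads but not in CPM, with 335 to 437 reads in MDA-MB-231 and 422 to 607 in T47D. From HIST1H2BC to HIST3H2A, ranks 5 to 9 in T47D, neighbouring genes overlapped, with means of 45 to 26.7 CPM per kilobase. The 6 genes HIST2H2AA3, HIST2H2AA4, HIST2H3A, HIST2H3C, HIST2H4A and HIST2H4B are listed as pairs with identical spans, none of their 51-base windows occurred only once in the genome, and all had 0 reads in the 11 libraries. Reads from near-identical or overlapping copies may have been left unassigned in the counting, so these 0 counts are uncertain. HIST2H3D, an H3 gene with 22.4% unique windows, had 0 reads in MDA-MB-231 and 0 to 2 in T47D.

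**Figure D1:**
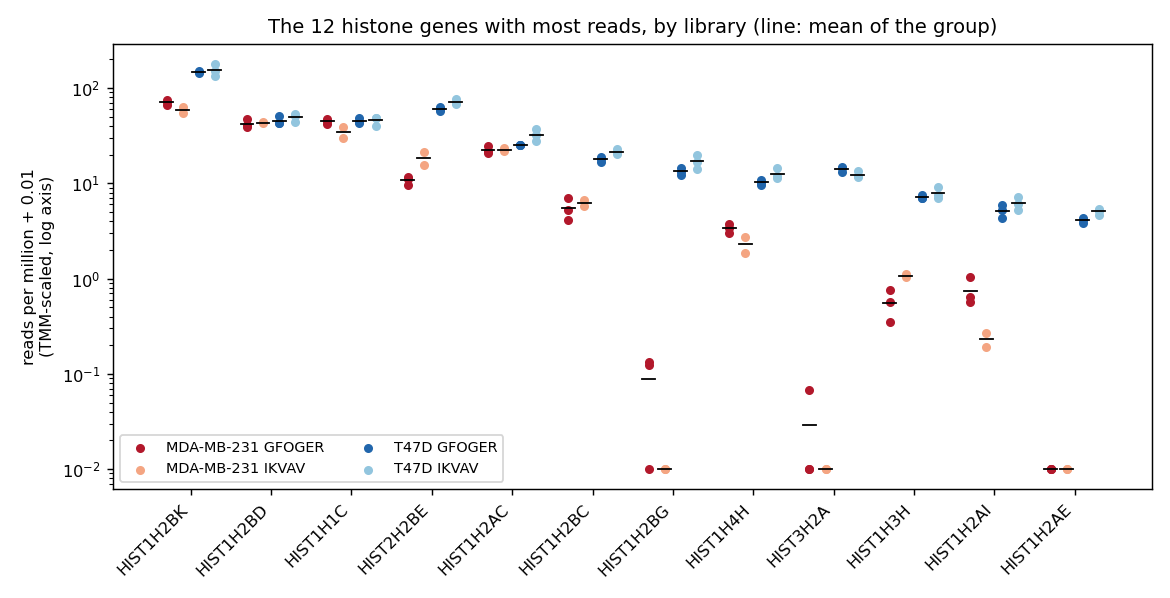
CPM, scaled by TMM factors and with 0.01 added, on a log axis for the 12 histone genes with the highest mean level. Points are libraries and lines are group means. HIST1H2BG, HIST3H2A and HIST1H2AE lie at or near the lower edge in MDA-MB-231 and between 4.09 and 17.1 CPM on average in both T47D groups.

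The histone genes together took 214 ± 8.1 reads per 1000000 (SD, n = 3) in MDA-MB-231 with GFOGER and 198 ± 17 (n = 2) with IKVAV, and 454 ± 13 (n = 3) in T47D with GFOGER and 503 ± 31.3 (n = 3) with IKVAV. The lines did not overlap, with 186 to 224 reads per 1000000 in MDA-MB-231 and 439 to 531 in T47D, and the peptides overlapped within MDA-MB-231 and not within T47D, with 439 to 462 for GFOGER and 469 to 531 for IKVAV. H2B genes gave most of these reads, at 136 ± 5.96 and 132 ± 11 on the same scale in MDA-MB-231 and 310 ± 12.3 and 342 ± 22.5 in T47D for GFOGER and IKVAV. H3 genes gave 2.51 ± 0.277 and 2.79 ± 0.0997 in MDA-MB-231 and 15.9 ± 1.25 and 17.9 ± 1.06 in T47D. The H1 genes had 30.7 to 48.2 in MDA-MB-231 and 48.2 to 58.4 in T47D.

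**Figure D2:**
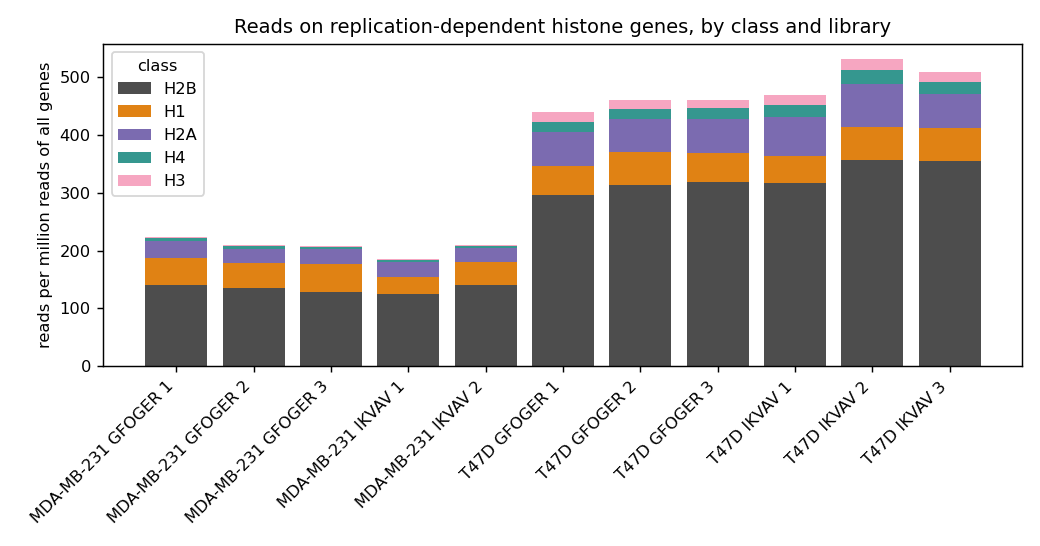
Reads on the 73 histone genes per 1000000 reads on all genes, stacked by histone class, for the 11 libraries. The T47D bars reach 439 to 531 and the MDA-MB-231 bars 186 to 224, and H2B is the largest part in every library.

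The comparison of the lines asked how these genes differ between a basal-like and a luminal line in the same gels, averaged over the 2 peptides. Of the 73 genes, 38 had enough reads to be tested, and 30 of them differed by more than 2-fold at an adjusted p below 0.05 (edgeR quasi-likelihood test, Benjamini-Hochberg over 15320 genes), 27 lower and 3 higher in MDA-MB-231. Of all genes tested, 46.3% met the same rule, 22.6% as lower and 23.7% as higher. Without the limit on the fold, 34 of the 38 passed (30 lower, 4 higher), against 84.5% of all genes, 42.5% as lower and 42% as higher. The median log2 fold change was -1.91 for the 38 genes and -0.02 for all genes. Among the 11 histone genes with at least 10 reads in every library it was -0.676, and 7 of these passed at an adjusted p below 0.05, 5 of them by more than 2-fold. A gene could pass the filter on low reads through 1 line alone, so the count describes genes that were detected somewhere, not all 73.

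In each class the genes lower in MDA-MB-231 by more than 2-fold outnumbered those higher, with 2 of 4 tested H1 genes, 7 of 9 H2A genes, 10 of 15 H2B genes, 5 of 6 H3 genes and 3 of 4 H4 genes. Of all genes tested, 22.6% were lower and 23.7% higher by this rule. The class counts include genes with 0 reads in every MDA-MB-231 library, which passed the filter on low reads through T47D. Both H1 genes (HIST1H1D and HIST1H1B) and the H3 genes HIST1H3D, HIST1H3E and HIST1H3F were such genes. The counts also hold the 10 tested genes of the run described below, so they do not describe whole classes. HIST2H2BE, an H2B gene, had 167, 190 and 193 reads in MDA-MB-231 with GFOGER, 240 and 355 with IKVAV, 963, 1056 and 1062 in T47D with GFOGER and 1040, 1251 and 1159 with IKVAV, a log2 fold change of -2.22 (SE 0.0918, adjusted p = 4.53e-15). The H4 gene HIST1H4H had 162 to 240 reads in T47D and 31 to 65 in MDA-MB-231 (log2 fold change -2.03, SE 0.141, adjusted p = 3.17e-11). For the H3 gene HIST1H3H the ranges were 103 to 154 and 6 to 17 reads (log2 fold change -3.29, SE 0.188, adjusted p = 1.15e-12). HIST1H2BC, an H2B gene, had 283 to 374 reads in T47D and 66 to 122 in MDA-MB-231 (log2 fold change -1.75). None of these 4 genes overlapped between the lines. The highly expressed genes HIST1H2BK, HIST1H2AC and HIST1H1C were lower in MDA-MB-231 by -1.22, -0.35 and -0.21 on the log2 scale (adjusted p = 4.19e-12, 0.00136 and 0.0294), and HIST1H1C overlapped between the lines, with 464 to 830 and 596 to 819 reads. Its call was lost without MDA-MB-231 GFOGER replicate 2 (-0.18), MDA-MB-231 IKVAV replicate 1 (-0.10) or T47D GFOGER replicate 2, IKVAV replicate 2 or IKVAV replicate 3 (-0.18 each). HIST1H2BD did not pass (log2 fold change -0.15, SE 0.0796, adjusted p = 0.0935).

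A run of neighbouring genes had almost no reads in MDA-MB-231. From HIST1H2BE to HIST1H2BI (chr6:26184024-26273640, hg19, a span of 89.6 kb) lie 16 histone genes in a row and no other gene of the table, and each had fewer than 10 reads over the 5 MDA-MB-231 libraries together. It is the longest such run among the 56 genes of chromosome 6 and was found by scanning the values, so it is given as a description. Over the run, each MDA-MB-231 library had 0 to 5 reads and each T47D library 629 to 857, and 12 of the 16 genes had 0 reads in MDA-MB-231. In T47D the run gave 9.15% of all histone reads. The longest run with fewer than 10 reads over the 6 T47D libraries held 4 genes, HIST1H2AA to HIST1H1A, and these had 3 reads in MDA-MB-231.

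Within the run the H2B gene HIST1H2BG (chr6:26216428-26216872, minus strand) had 0, 2 and 2 reads in MDA-MB-231 with GFOGER, 0 and 0 with IKVAV, 206, 220 and 255 in T47D with GFOGER and 250, 328 and 241 with IKVAV, a ratio of 334 with a 95% interval of 130 to 1230 that covers counting error only. Its divergent neighbour HIST1H2AE (chr6:26217148-26217711, plus strand), an H2A gene, had 0 reads in every MDA-MB-231 library and 65 to 91 in T47D, at least 134-fold lower when the floor of 3 reads is set for the MDA-MB-231 libraries together. On the same floor HIST1H2BF, with 58 to 81 reads in T47D, was at least 126-fold lower and HIST1H1D, an H1 gene with 36 to 52, at least 81.2-fold lower. The 10 genes of the run that were tested passed the filter on low reads through T47D, and their calls as lower in MDA-MB-231 follow from how the run was chosen. HIST1H4F, HIST1H4G, HIST1H3G, HIST1H2BI and HIST1H2BE were at 0 to 4 reads in the T47D libraries as well, and HIST1H4D, also not tested, was at 5 to 11. All but HIST1H2BE, with 76.6%, had at least 97.7% unique 51-base windows. HIST1H3D and HIST1H2AD overlap each other, so their reads may have been left out in part.

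Genes on both sides of the run were read in both lines. HIST1H2BD, next to its start, had 637 to 820 reads in MDA-MB-231, and HIST1H4H, next to its end, 31 to 65. Of the nearest other genes of the table, HFE, which regulates iron uptake, had 337 to 523 reads in MDA-MB-231 and 865 to 1091 in T47D, and BTN3A2, a butyrophilin that acts on T cells, had 486 to 667 and 66 to 128. DNA copy number and chromatin were not measured here, and their part in the run was not tested.

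**Figure D3:**
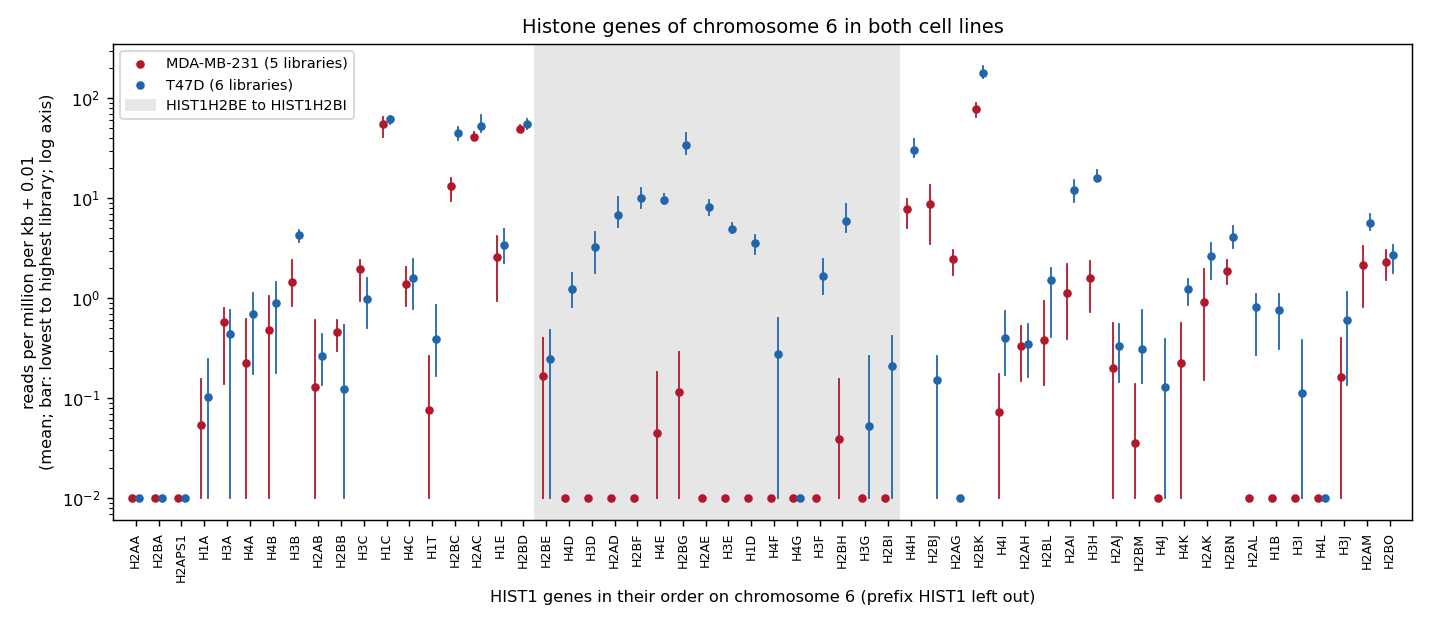
Mean CPM per kilobase, with 0.01 added, on a log axis for the 56 HIST1 genes in their order on chromosome 6. Points are line means, bars run from the lowest to the highest library (5 of MDA-MB-231, 6 of T47D), and the shaded genes from HIST1H2BE to HIST1H2BI held 0 to 5 reads in all per MDA-MB-231 library.

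Many H2A and H2B genes stand head to head and share the DNA between their starts. For a pair of the run, for the pair on chromosome 1, for the pair that was higher in MDA-MB-231 and for the pair that holds HIST1H2BK, this DNA is shown from the lower to the higher hg19 coordinate. Capitals mark 3 motifs on either strand. The first is the CCAAT box, which the factor NF-Y is known to bind in many promoters. Also marked is TATAAA, the core of the box that places the start of transcription, whose matches on opposite strands can overlap within TTTATAAA and are then counted on each strand. The octamer ATTTGCAT is known as a binding sequence of the factor OCT1 in H2B genes. The intervals are chr6:26216873-26217147, chr1:228645561-228645807, chr6:27100576-27100816 and chr6:27114638-27114907, and all are intergenic.
HIST1H2BG/HIST1H2AE: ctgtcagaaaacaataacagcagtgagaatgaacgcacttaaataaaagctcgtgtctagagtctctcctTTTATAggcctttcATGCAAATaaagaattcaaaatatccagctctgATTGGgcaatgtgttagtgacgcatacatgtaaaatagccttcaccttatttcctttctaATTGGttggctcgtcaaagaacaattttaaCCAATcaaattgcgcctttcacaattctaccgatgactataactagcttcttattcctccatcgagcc
HIST3H2A/HIST3H2BB: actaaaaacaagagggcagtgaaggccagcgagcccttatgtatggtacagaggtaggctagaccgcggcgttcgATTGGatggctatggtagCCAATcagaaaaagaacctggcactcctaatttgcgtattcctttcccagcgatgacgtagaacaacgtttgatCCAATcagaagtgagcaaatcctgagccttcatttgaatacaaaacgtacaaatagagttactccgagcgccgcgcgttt
HIST1H2BJ/HIST1H2AG: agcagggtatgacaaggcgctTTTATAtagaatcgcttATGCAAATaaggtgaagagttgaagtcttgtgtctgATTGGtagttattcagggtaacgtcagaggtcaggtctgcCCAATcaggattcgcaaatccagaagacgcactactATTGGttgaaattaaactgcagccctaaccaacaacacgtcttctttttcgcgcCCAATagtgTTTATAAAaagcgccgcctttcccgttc
HIST1H2BK/HIST1H2AH: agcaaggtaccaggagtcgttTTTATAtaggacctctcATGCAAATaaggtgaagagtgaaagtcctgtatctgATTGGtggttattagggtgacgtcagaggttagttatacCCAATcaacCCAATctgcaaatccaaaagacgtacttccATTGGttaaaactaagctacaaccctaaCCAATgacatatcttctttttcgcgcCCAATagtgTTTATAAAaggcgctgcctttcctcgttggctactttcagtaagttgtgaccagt
The interval of HIST1H2BG and HIST1H2AE, which had almost no reads in MDA-MB-231, holds 3 CCAAT boxes, 1 TATAAA and 1 octamer. The interval of HIST3H2A and HIST3H2BB holds 3 CCAAT boxes and neither of the others, and that of HIST1H2BJ and HIST1H2AG holds 4, 3 and 1. The bases of HIST1H2BJ and HIST1H2AG that aligned without gaps were 83.8% identical to those of HIST1H2BK and HIST1H2AH, and the other pairings of these intervals with each other and with that of HIST1H2BC and HIST1H2AC had 69.5% to 77.8%. In RefSeq promoters of the GRCh38.p14 assembly (250 bases before to 50 after the start), CCAAT was present in 84.6% of the 65 histone genes matched and in 35.7% of all 27305 promoters, TATAAA in 66.2% and 12%, and ATTTGCAT in 40.0% and 1.8%. The octamer was present in 77.8% of H2B and 68.8% of H2A promoters and in none of the 13 H4 promoters. These matches are letters in a window and not measured sites.

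HIST3H2A and HIST3H2BB, an H2A and an H2B gene on chromosome 1, were also nearly unread in MDA-MB-231. HIST3H2A (chr1:228645065-228645560, minus strand) had 1, 0 and 0 reads in MDA-MB-231 with GFOGER and 0 and 0 with IKVAV, and 241, 251, 231, 198, 196 and 194 in the T47D libraries, a ratio of 1170 with a counting interval of 209 to 46100. HIST3H2BB (chr1:228645808-228646259, plus strand) had 0 reads in every MDA-MB-231 library and 57 to 79 in T47D, at least 117-fold lower, with 66.4% unique windows. HIST3H3, an H3 gene that lies between HIST3H2A and TRIM17, had 0 to 1 reads in the libraries of both lines. TRIM17, a ubiquitin ligase gene, had 6 to 15 reads in MDA-MB-231 and 194 to 336 in T47D. TRIM11 and RNF187, other ubiquitin ligase genes nearby, were read in both lines, with 364 to 566 and 949 to 1309 reads in MDA-MB-231 and 741 to 1089 and 3261 to 4029 in T47D.

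A divergent pair on chromosome 6 went the other way. HIST1H2BJ (chr6:27100095-27100575, minus strand), an H2B gene, had 113, 75 and 96 reads in MDA-MB-231 with GFOGER, 26 and 46 with IKVAV and 0 to 2 in the T47D libraries (log2 fold change 5.51, SE 0.359, adjusted p = 1.06e-11). HIST1H2AG (chr6:27100817-27101314, plus strand), its H2A neighbour, had 13 to 25 reads in MDA-MB-231 and 0 in every T47D library, at least 38.6-fold higher on a floor of 3 reads over the T47D libraries together. The pseudogene HIST2H2BA, with 6 to 31 reads in MDA-MB-231 and 0 to 3 in T47D, was also higher by more than 2-fold (log2 fold change 2.39, SE 0.488, adjusted p = 0.000144), but only 6.7% of its 51-base windows were unique, so its reads are uncertain. HIST1H3C, an H3 gene, was called higher as well, with 7 to 18 and 4 to 12 reads (log2 fold change 0.99, SE 0.342, adjusted p = 0.0117). It overlapped between the lines and did not pass without the library MDA-MB-231 IKVAV replicate 1 (0.63, adjusted p = 0.166). In 10 of the 13 divergent pairs both genes were tested, and both passed at an adjusted p below 0.05 in the same direction in 9 of them. Of all genes tested 84.5% passed in either direction, and 30 of the 38 histone genes passed as lower, and the pairs were not tested against these shares. Of the 9 pairs, a pair with HIST1H3D and a pair with HIST1H2AD share HIST1H2BF. Both lie in the run from HIST1H2BE to HIST1H2BI, as does the pair of HIST1H2BG and HIST1H2AE. The shared direction of these pairs therefore follows from how the run was chosen.

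The peptide comparison asked whether the collagen mimic and the laminin mimic changed these genes within a line. In MDA-MB-231, 20 of the 73 genes were tested, and 4 rose by more than 2-fold with GFOGER while 0 fell, against 9.57% of all 14092 genes, 3.12% as higher and 6.46% as lower. At an adjusted p below 0.05 alone, 6 of the 20 passed (5 higher, 1 lower), against 42.8% of all genes, 21.4% in each direction. The median log2 fold change was 0.22 for the 20 genes and 0.00 for all genes.

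HIST1H1E, an H1 gene, had 42, 38 and 58 reads with GFOGER and 19 and 12 with IKVAV in MDA-MB-231 (log2 fold change 1.45, SE 0.372, adjusted p = 0.00489). HIST1H2BJ, given above, rose by 1.29 on the log2 scale (SE 0.274, adjusted p = 0.00124). The H2A gene HIST1H2AI had 18, 9 and 11 reads with GFOGER and 4 and 3 with IKVAV (log2 fold change 1.72, SE 0.652, adjusted p = 0.043), and only 32.7% of its windows were unique. Its call was lost in 6 of 11 alternatives, among them DESeq2 (adjusted p = 0.111), no filter on low reads (0.0879), the replicate block (0.0538) and the RPKM totals as a term (0.107). HIST2H2BA had 20, 19 and 31 reads against 6 and 6 (log2 fold change 1.83, SE 0.506, adjusted p = 0.0079), with the same limit on uniqueness. In all 4 the libraries with GFOGER lay above those with IKVAV.

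HIST2H2BE fell with GFOGER in MDA-MB-231, from 18.5 to 10.8 CPM (log2 fold change -0.79, SE 0.168, adjusted p = 0.00128). HIST1H1C rose from 34.7 to 44.9 CPM (log2 fold change 0.36, SE 0.131, adjusted p = 0.0349). HIST1H2BK, with 71.3 against 58.8 CPM, did not pass (adjusted p = 0.0618), nor did HIST1H2AC, with 22.5 against 22.4, or HIST1H2BD, with 42.4 against 43.4. The calls rest on 2 libraries with IKVAV. Without MDA-MB-231 IKVAV replicate 2, the calls of HIST1H1E (1.12), HIST1H2AI (1.48), HIST2H2BA (1.79) and HIST2H2BE (-0.54) were lost. Without MDA-MB-231 IKVAV replicate 1, those of HIST1H1C (0.18) and HIST1H2AI (1.98) were lost. Each of these fits left 1 library with IKVAV. Without MDA-MB-231 GFOGER replicate 1 HIST1H1C was at 0.35 (adjusted p = 0.0777), and without GFOGER replicate 3 HIST1H2BK passed, at 0.32 (adjusted p = 0.000258). HIST1H2BK also passed with the replicate block, at 0.33 (adjusted p = 4.65e-05). With the RPKM totals as a term HIST1H1C did not pass, at 0.18 (adjusted p = 0.45).

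In T47D, 34 of the 73 genes were tested and 0 passed at an adjusted p below 0.05 (edgeR and DESeq2), against 0.11% of all 13642 genes (0.044% as higher and 0.066% as lower), and 0 passed with the 2-fold limit, against 0.0293%. At an unadjusted p below 0.05 there were 6, all lower with GFOGER (HIST1H2AC, HIST2H2BE, HIST1H2BG, HIST1H2BC, HIST4H4 and HIST2H2BF), against 11.2% of all genes, and the smallest adjusted p was 0.307. The log2 fold change was below 0 for 29 of the 34 genes and for 50.3% of all genes, with medians of -0.27 and 0.00. HIST1H2AC had 422, 428 and 449 reads with GFOGER and 474, 607 and 465 with IKVAV, which is 25.4 against 32.3 CPM (log2 fold change -0.34, SE 0.117, adjusted p = 0.307). HIST2H2BE was at 60.3 against 71.9 CPM (-0.25, SE 0.0874, adjusted p = 0.317), HIST1H2BC at 17.9 against 21.5 (-0.27, adjusted p = 0.41) and HIST1H2BG at 13.3 against 17.1 (-0.36, adjusted p = 0.372). The CPM of the libraries did not overlap between the peptides for HIST1H2AC, HIST2H2BE and HIST1H2BC, and overlapped for HIST1H2BG. Without T47D IKVAV replicate 3, 3 genes passed as lower, HIST1H2AC at -0.45, HIST1H2BG at -0.48 and HIST2H2BE at -0.29. In that fit all GFOGER libraries were in the low set of library totals behind the RPKM values and all IKVAV libraries in the high set. Peptide and set therefore cannot be told apart there. HIST1H2BK, at 148 against 155 CPM, HIST1H1C, at 45.4 against 45.7, and HIST1H2BD, at 45.3 against 49.6, had adjusted p-values of 0.852, 0.983 and 0.689.

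**Figure D4:**
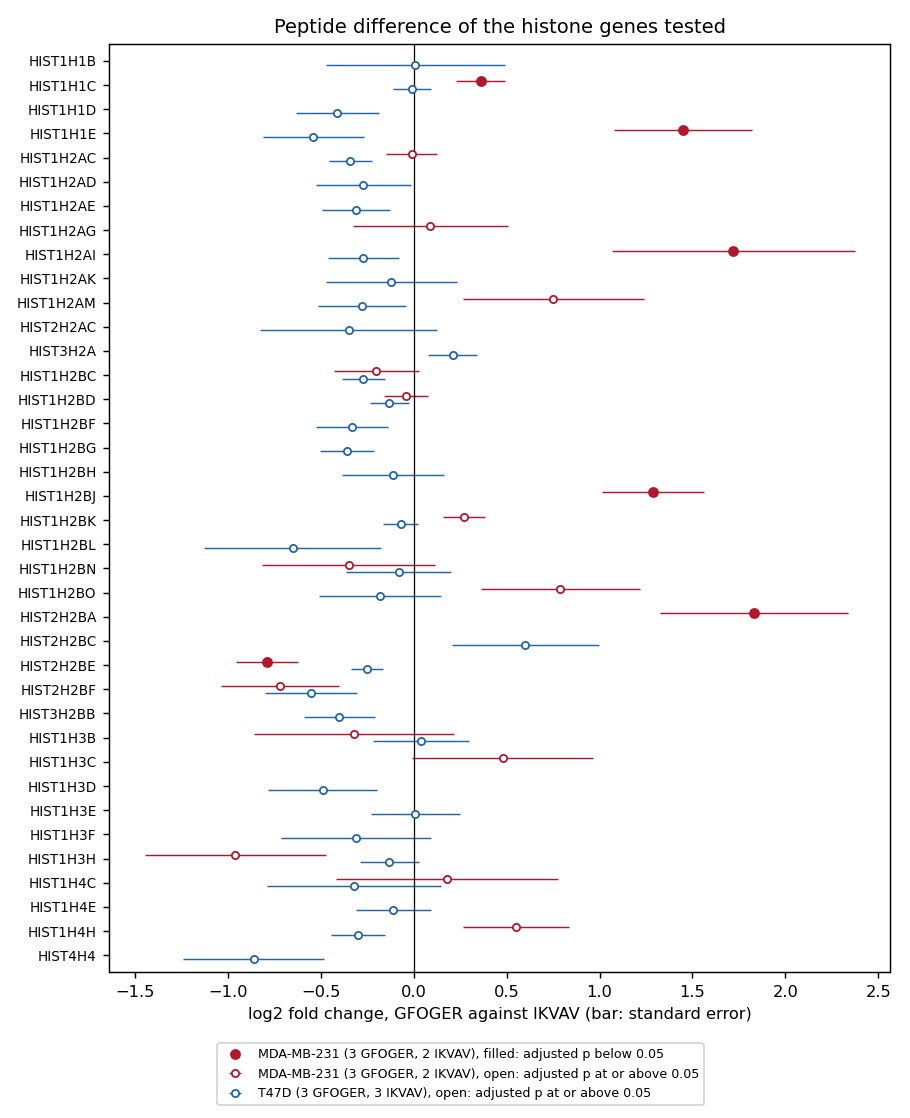
Log2 fold change of GFOGER against IKVAV with its standard error for each histone gene tested, in MDA-MB-231 (red, 20 genes) and T47D (blue, 34 genes). Filled points passed at an adjusted p below 0.05, which were 6 genes in MDA-MB-231 and 0 in T47D, and 29 of the 34 blue points lie below 0.

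The difference of the peptide effects between the lines was tested in 1 fit of all 4 groups. Of 38 genes, 5 passed at an adjusted p below 0.05 (3 higher and 2 lower in MDA-MB-231 relative to T47D), against 21% of all 15320 genes (10.8% as higher and 10.1% as lower), and 3 exceeded 2-fold (2 higher, 1 lower), against 6.39% (2.24% and 4.15%). HIST1H1E differed by 2.00 on the log2 scale (SE 0.463, adjusted p = 0.00456). In T47D it had 36, 44 and 31 reads with GFOGER and 31, 63 and 59 with IKVAV, which overlap. HIST1H2AI differed by 1.99 (SE 0.577, adjusted p = 0.0183), HIST1H4H by 0.86 (SE 0.287, adjusted p = 0.038) and HIST2H2BE by -0.53 (SE 0.177, adjusted p = 0.038). The pseudogene HIST2H2BC differed by -2.78 (SE 0.945, adjusted p = 0.042). Only 20.5% of its 51-base windows were unique and it lies inside the listed spans of other histone genes, so its reads are uncertain. MDA-MB-231 with IKVAV had 2 and 16 reads of it and with GFOGER 1, 3 and 2, so the value turned on 1 library. The value was -0.75 without MDA-MB-231 IKVAV replicate 2. A single gene passed without that library or without MDA-MB-231 GFOGER replicate 1, 2 without T47D GFOGER replicate 1 or 2, and 3 without T47D IKVAV replicate 2 or 3. With the replicate number as a block 2 passed. For genes with 0 reads in all libraries of 1 line this difference could not be estimated. Such genes, HIST3H2BB and HIST1H2AE for example, are among the 38 and could not pass.

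The genes that make and handle histone mRNA and protein were read from lists. The counts of each list stand against all genes. With GFOGER 21.4% of all genes passed as higher and 21.4% as lower in MDA-MB-231, and 0.11% in either direction in T47D. Between the lines 42% passed as higher and 42.5% as lower in MDA-MB-231. By more than 2-fold these shares between the lines were 23.7% and 22.6%. SLBP had 120 ± 15.9 and 94.9 ± 0.01 CPM in MDA-MB-231 and 114 ± 4.37 and 103 ± 15.2 in T47D for GFOGER and IKVAV, and it rose with GFOGER in MDA-MB-231 (log2 fold change 0.33, SE 0.112, adjusted p = 0.0276), a call lost without any of 3 of the 5 libraries, MDA-MB-231 GFOGER replicate 1 (0.21) and both with IKVAV (0.33). With the RPKM totals as a term SLBP did not pass for the peptide in MDA-MB-231 (0.32, adjusted p = 0.162). Between the lines NPAT was higher in MDA-MB-231 by 0.35 (adjusted p = 0.000147). CASP8AP2, a partner of NPAT in the same nuclear bodies, was lower by -0.29 (adjusted p = 0.0032) and SLBP at -0.02 (adjusted p = 0.814). Of the 17 genes for transcription and 3′ end processing, 7 rose and 2 fell with GFOGER in MDA-MB-231, against 42.8% of all genes in either direction, and 0 passed in T47D. Between the lines 5 were higher and 8 lower in MDA-MB-231, against 84.5% of all genes in either direction. By more than 2-fold 3 of the 17 were lower, against 22.6% of all genes. These 3 were MIF4GD, an SLBP-binding translation factor (-1.85), CCNE2, a cyclin E (-1.36), and CSTF2T, a cleavage factor (-1.11). Of 7 genes for decay of histone mRNA, 1 rose and 3 fell with GFOGER in MDA-MB-231, against 42.8% of all genes, and 0 passed in T47D. Between the lines 3 were higher and 2 lower in MDA-MB-231, against 84.5% of all genes. By more than 2-fold ZCCHC6, a uridylyl transferase (1.07), was higher and DCP2, the decapping enzyme (-1.10), lower in MDA-MB-231. Of all genes 23.7% were higher and 22.6% lower by that rule.

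Of 14 histone chaperone and acetylation genes, 8 rose and 2 fell with GFOGER in MDA-MB-231, against 42.8% of all genes, and 0 passed in T47D. Between the lines 5 were higher and 6 lower in MDA-MB-231, against 84.5% of all genes. By more than 2-fold 1 of the 14 was lower, against 22.6% of all genes, namely RBBP7, a histone-binding subunit of several complexes (-1.59). IPO4, an importin for H3 and H4, rose from 59.0 ± 3.01 to 106 ± 13.1 CPM with GFOGER in MDA-MB-231 (log2 fold change 0.84, SE 0.114, adjusted p = 2.3e-05), and it was named after its values were seen. Of the genes listed as replication-independent histones, 4 of 11 rose and 0 fell with GFOGER in MDA-MB-231, against 42.8% of all genes, and 0 of 12 passed in T47D. The list includes H2AFX (H2AX), in which the stem-loop was matched, so it is not free of genes with that element. Between the lines 3 of 12 were higher and 8 lower in MDA-MB-231, against 84.5% of all genes. By more than 2-fold 3 of the 12 were lower, against 22.6% of all genes. These 3 were H2AFY2, a macroH2A gene (-6.16), H2AFJ, an H2A variant gene that lies beside HIST4H4 on chromosome 12 (-2.04), and the linker histone gene H1FX (-1.43).

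Of 16 DNA replication genes, 12 rose with GFOGER in MDA-MB-231 and 0 fell, against 21.4% of all genes in each direction. The median log2 fold change of the 16 was 0.48. In T47D 0 passed, against 0.11% of all genes, with a median of 0.12. The interaction called 4 of the 16 as higher in MDA-MB-231 relative to T47D and 0 as lower. Of all genes it called 10.8% as higher and 10.1% as lower. It called 3 and 0 of the 17 transcription and processing genes and 1 and 0 of the 7 decay genes. Of the 14 chaperone and acetylation genes it called 3 and 1, and of the 12 replication-independent histones 4 and 0. RRM2, a subunit of ribonucleotide reductase that was named after its values were seen, rose from 129 ± 6.31 to 257 ± 26.3 CPM in MDA-MB-231 (log2 fold change 0.99, SE 0.106, adjusted p = 1.81e-06). Between the lines 3 of the 16 were higher and 12 lower in MDA-MB-231, against 42% and 42.5% of all genes. By more than 2-fold 7 were lower and 0 higher, against 22.6% and 23.7% of all genes. The 7 were GINS2 (-3.14), MCM4 (-1.41), RRM2 (-1.14), MCM2 (-1.10), MCM6 (-1.10), PCNA (-1.05) and POLA1 (-1.05), which encode parts of the replication fork and the supply of nucleotides. The part of these genes in the differences of the histone genes was not tested.

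**Figure D5:**
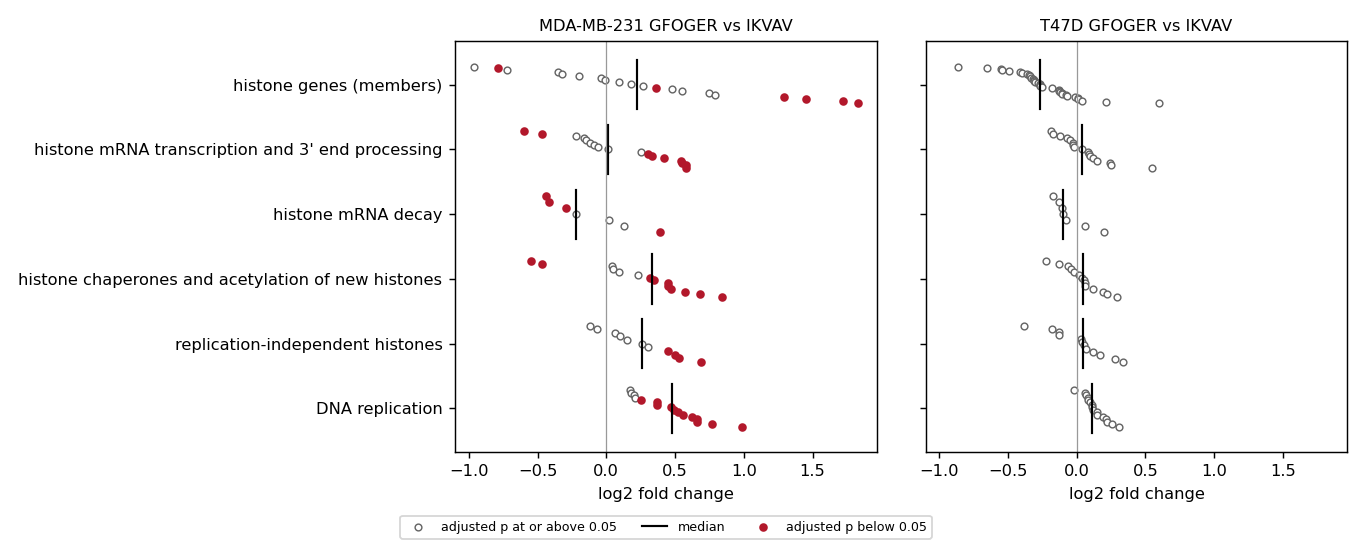
Log2 fold change of GFOGER against IKVAV in MDA-MB-231 (left) and T47D (right) for the histone genes tested and for 5 lists of related genes. Points are genes, filled where the adjusted p was below 0.05, and black lines are medians, which were 0.48 in MDA-MB-231 and 0.12 in T47D for DNA replication and 0.22 and -0.27 for the histone genes.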

How the data were processed

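Read quality was inspected with FastQC, TopHat2 was used for alignment to hg19, and HTSeq gave the read counts that the authors deposited, as raw counts per gene. Per the labels the tools were Trim Galore 0.4.4, TopHat2 2.1.0, bedtools 2.17, SAMtools 1.4, HTSeq 0.6.1p1 and edgeR 3.16.5, and the libraries were stranded and read for 51 bases from a single end. The annotation and whether counting used strand are not given in the sources used here. RPKM values that the authors deposited beside the counts served to find the library totals behind them, and no result was taken from them. Those totals formed 2 sets, low in MDA-MB-231 IKVAV replicate 1, all T47D GFOGER libraries and T47D IKVAV replicate 3 (5191201 to 5774966) and high in the others (19898878 to 22840524). The counts summed to 14338238 to 18452145 per library.

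Each gene symbol was kept on 1 row, ordinary chromosomes first, which left 23368 of 24656 rows. Genes were filtered with filterByExpr, scaled by TMM and tested with edgeR's quasi-likelihood test with a robust prior (edgeR 4.0.16, R 4.3.3), each line on its own for the peptides and all 4 groups for the lines and the interaction, with Benjamini-Hochberg adjustment over all genes tested. The standard error is the log2 fold change divided by the root of the F statistic. The code was tested on simulated data. Separate cultures per library are not stated beyond the pooled gels, so p-values measure the spread between these libraries. Fold bounds use 3 reads summed over the libraries of a line, and intervals are exact 95% binomial ones for counting error only. Sequence and strand came from GRCh37, which matches hg19, and GENCODE, or for 3 genes from the open reading frame. Replicate numbers did not pair the libraries (correlations of deviations from -0.184 to 0.0429). Genes named were the 12 histone genes with the highest mean level, the 5 largest increases and decreases called in each comparison, the leading gene of each class and genes with identical copies, and of the lists SLBP, NPAT, CASP8AP2 and any gene called over 2-fold. The members and lists were chosen with earlier results of these data known. Alternatives were DESeq2 1.42.0, other scalings and filters, a replicate block, the sets of RPKM totals as a term and each library left out.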

Additional observations from a re-analysis of the deposited data

Results flagged for a closer look

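Of 38 histone genes tested, 5 (13.2%) passed the interaction test of edgeR's quasi-likelihood fit at an adjusted p below 0.05. Of all 15320 genes 21% passed. In the 5 histone genes the effect of GFOGER against IKVAV differed between the cell lines. The log2 differences, MDA-MB-231 minus T47D, were 2.00 for HIST1H1E, 1.99 for HIST1H2AI, 0.86 for HIST1H4H, -0.53 for HIST2H2BE and -2.78 for HIST2H2BC. HIST1H4H did not pass for the peptide within MDA-MB-231 (0.55, adjusted p = 0.128) or T47D (-0.3, adjusted p = 0.464). Only 20.5% of the 51-base windows of HIST2H2BC were unique, so its reads are uncertain. HIST1H1E passed under all 19 alternatives (1.65 to 2.43), HIST1H2AI under 15 of 18, HIST1H4H and HIST2H2BE under 11 of 19 and HIST2H2BC under 9 of 18. Groups held 2 or 3 libraries, so no single library was tested for standing apart.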

How the results depend on the processing

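No named fold change reversed under any alternative. Of 998 refits of 57 fold changes, 941 kept direction and side of the threshold, 51 lost the call and 6 gained it. With at least 10 reads in every library fewer histone genes could be tested, and the counts were 2 by the 2-fold rule for the peptide in MDA-MB-231, 5 and 7 (with and without the fold limit) between the lines and 1 and 3 for the interaction. With the replicate block the interaction had 2 genes at an adjusted p below 0.05 in place of 5, and the block changed no other count by over 1.5 times; replicate numbers are shared only by name. Leaving out each library in turn gave 1 to 4 and 2 to 6 genes for the peptide in MDA-MB-231, 0 and 0 to 3 in T47D, 29 to 33 and 33 to 35 between the lines and 1 to 3 and 1 to 5 for the interaction. With 1 library left for MDA-MB-231 IKVAV, it was assumed to vary like the others. The cause of these shifts was not tested. The median of the histone genes in T47D stayed between -0.334 and -0.193 under all 15 alternatives. An added alternative, the prior without robust estimation, chosen after seeing the data, changed no count of histone genes. Without HIST1H2BK the histone genes took 146, 141, 302 and 345 reads per 1000000 in MDA-MB-231 with GFOGER and IKVAV and T47D with GFOGER and IKVAV. The median of the histone genes for the peptide in MDA-MB-231 ranged from 0.00 to 0.374, the lowest with all 4 groups in the fit. Histone genes with too few reads for the filter were not tested.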
